A study of Mus musculus with 34 samples.

Results

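The YAP and TEAD genes described here are 10 symbols: Yap1, Wwtr1 and Tead1, which encode the core factors, and Ajuba, Amotl2, Ptpn14, Ccn1, Ankrd1, Myof and Tgfb2, which are known or reported targets. They were chosen by name, with earlier results of these data known, and all 10 were among the 14086 genes of the normalized count table. The study set apart subtypes of mouse liver tumour linked to beta-catenin isoforms that lack an exon. Tumours were modelled by hydrodynamic injection, the rapid injection of a large volume that carries DNA into hepatocytes, and bulk RNA of frozen liver tissue was sequenced with strand-specific libraries. Normalized counts covered 18 libraries in 6 groups: wild type (n = 2), β-catenin skip 1 isoform alone (n = 3), β-catenin skip 2 isoform alone (n = 2), skip 1 isoform induced (n = 5), skip 2 isoform induced (n = 2) and ΔN90-β-catenin induced (n = 4), the last a beta-catenin without its N terminus and called dN90 here. Z-scores of 1659 genes selected by the authors covered subtype A (n = 4), subtype B (n = 9) and a control labelled sgActin and YAPS127A (n = 3), that is an actin guide with a YAP that resists Hippo phosphorylation. The labels give no strain, age, promoter or number of animals, and do not say whether the induced or the subtype samples also received YAPS127A. For the 4 skip2 libraries a second label field repeats skip 1, and the source label was used. No label ties a library to an animal, so the p-values reflect the spread among these libraries, which may be technical.

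YAP, the product of Yap1, and TAZ, the product of Wwtr1, are coactivators without a DNA-binding domain. When the Hippo kinase cascade is active, the LATS kinases phosphorylate them and they are held in the cytoplasm or degraded. When it is inactive, they enter the nucleus, bind TEAD factors such as Tead1 and drive target genes. Control of YAP is largely through the protein rather than its mRNA, so target genes are the usual transcript readout. In mouse liver, active YAP is known for enlarging the organ and for moving hepatocytes toward a biliary or progenitor state, and it has been combined with beta-catenin to model liver tumours. Several targets act back on the pathway: angiomotin family proteins such as Amotl2 and the phosphatase Ptpn14 bind YAP and restrain it, and Ajuba binds and restrains LATS kinases.

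The core TEAD site, GGAATG or CATTCC on the other strand, was searched in the 250 bases before the RefSeq start of each gene. The RefSeq table (GRCm38.p6) held 9 of the 10 genes; Tead1 was not in it. GGAATG was found for 7 of the 9 (Yap1, Wwtr1, Ajuba, Ccn1, Amotl2, Ptpn14 and Ankrd1), against 14.4% of all 27025 genes in the table. Myof and Tgfb2 held none in this window. The AP-1 motif TGANTCA, which reads the same on both strands and can share end bases with GGAATG, was found in 0 of the 9, against 7.82% of genes. Most of these genes were chosen as known or reported targets, so the share with a site is not independent of that choice. A match describes the letters of the window and is not evidence of binding. Whole windows follow for 3 target genes whose window holds no annotated exon of the gene, with the motif in capitals on either strand.
Ajuba, GRCm38.p6 chr14:54577662-54577911, minus strand: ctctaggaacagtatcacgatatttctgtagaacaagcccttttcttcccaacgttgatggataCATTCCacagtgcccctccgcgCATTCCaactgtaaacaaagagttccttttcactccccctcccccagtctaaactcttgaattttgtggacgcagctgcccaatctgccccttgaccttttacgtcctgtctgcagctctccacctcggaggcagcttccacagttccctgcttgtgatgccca
Ccn1, GRCm38.p6 chr3:145649986-145650235, minus strand: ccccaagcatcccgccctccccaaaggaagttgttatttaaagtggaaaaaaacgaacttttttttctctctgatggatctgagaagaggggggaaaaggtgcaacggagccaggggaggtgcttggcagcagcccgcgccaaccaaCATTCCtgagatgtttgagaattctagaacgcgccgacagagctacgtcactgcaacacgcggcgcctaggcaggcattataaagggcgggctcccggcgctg
Ptpn14, GRCm38.p6 chr1:189728018-189728267, plus strand: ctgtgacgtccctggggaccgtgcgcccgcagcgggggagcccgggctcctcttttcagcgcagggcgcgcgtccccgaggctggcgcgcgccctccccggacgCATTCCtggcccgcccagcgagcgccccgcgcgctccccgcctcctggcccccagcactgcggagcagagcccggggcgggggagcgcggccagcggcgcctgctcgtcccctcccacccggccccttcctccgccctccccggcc
In the Ajuba window the matches began 186 and 164 bases before the start, in Ccn1 103 and in Ptpn14 146. All 250 bases of the Ankrd1 window, with both of its matches, lie in annotated exons of the gene, as do 136 bases of the Amotl2 window. Only 10 bases on each side of a match are therefore shown for these classical targets.
Ankrd1, GRCm38.p6 chr19:36120039-36120064, minus strand: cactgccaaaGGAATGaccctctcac
Ankrd1, GRCm38.p6 chr19:36119952-36119977, minus strand: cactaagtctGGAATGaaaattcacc
Amotl2, GRCm38.p6 chr9:102717729-102717754, plus strand: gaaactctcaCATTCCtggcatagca
The Ankrd1 matches began 210 and 123 bases before the RefSeq start, and the Amotl2 match began 65 bases before it.

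A normalized count here is a read count divided by a library factor, and 1 read was worth 0.460 to 1.64 normalized counts. Estimated depth was shallow. The smallest library, dN90 induced replicate 3, held 361772 reads and the largest, skip2 induced replicate 1, held 933147, so values under about 10 rest on few reads. That smallest library had the highest value of all 18 libraries for 7 of the 10 genes. Hepatocyte markers were present throughout, with a summed level of 15541 to 79054 normalized counts over 10 markers. Differences below are on the log2(normalized count + 1) scale, which understates changes of low genes, and were tested with limma over 6592 genes with a mean of at least 10. Of the 10 genes, 8 passed this filter, while Ankrd1 (mean 6.29) and Tgfb2 (mean 5.73) did not. Tead1, Ajuba, Myof, Ccn1 and Ptpn14 passed only through the induced groups, so a count among the 8 describes them and carries no weight of its own. Yap1, Wwtr1 and Amotl2 also had a mean of at least 10 in the 7 libraries without induction.

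**Figure D1:**
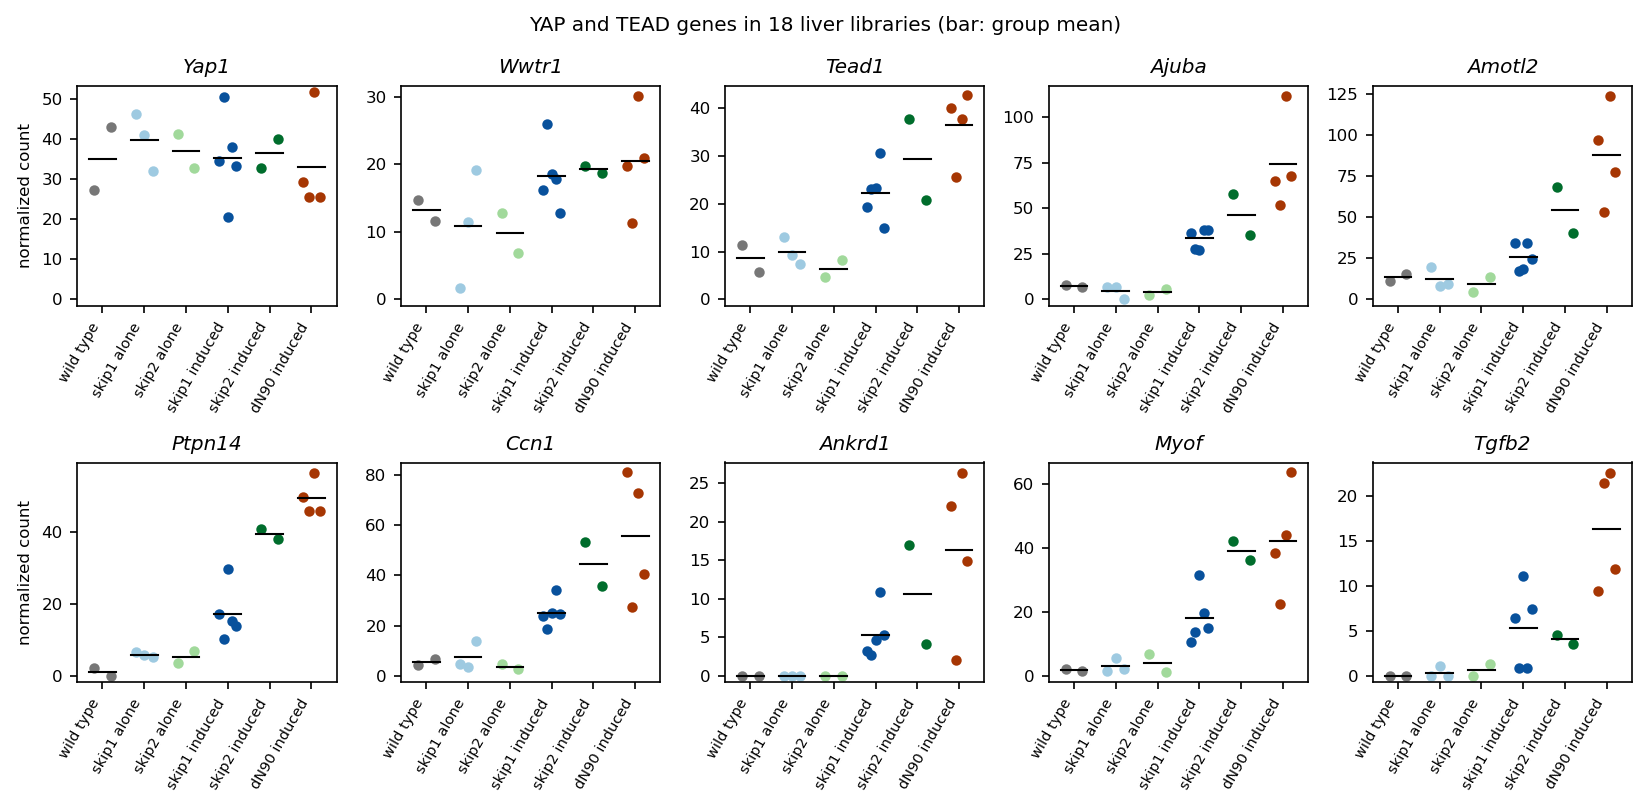
Normalized counts of the 10 genes (vertical axes, each with its own scale) in the 18 libraries of 6 groups; points are libraries and bars are group means. Yap1 lies between 20.5 and 51.7 in all groups, while Ankrd1 is at 0 in the 7 libraries without induction and between 2.04 and 26.3 in the 11 induced ones.

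Yap1, the coactivator gene itself (chromosome 9, 7931999 to 8004596, minus strand, mm10), was at about the same level with and without induction. It ranged from 27.3 to 46.3 normalized counts (median 41.1) in the 7 libraries without induction and from 20.5 to 51.7 (median 33.2) in the 11 induced libraries. The ranges overlapped almost entirely, and dN90 induced replicate 3, at 51.7, was the highest of all. The 3 induced groups together differed from the 3 other groups by -0.11 (SE 0.19, 95% interval -0.51 to 0.28, limma adjusted p = 0.676), a sign that turned positive under other scalings of the libraries. The interval leaves room for differences of up to 0.51 log2 units, and whether reads of an introduced YAP sequence reach the Yap1 value was not tested.

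Wwtr1, which encodes TAZ (chromosome 3, 57455649 to 57575910), was modestly higher in induced samples. It stood between 1.65 and 19.2 normalized counts (median 11.7) without induction and between 11.2 and 30.2 (median 18.8) with it. The lowest value, 1.65 in skip1 alone replicate 1, is 1 read, and the groups overlapped. The difference over all induced groups was 0.87 (SE 0.32, adjusted p = 0.0353), but no single induced group passed the test, with 1.10 for skip1 (adjusted p = 0.114), 0.96 for skip2 (0.336) and 0.53 for dN90 (0.523). The skip1 difference rests on single libraries: it was 0.24 (adjusted p = 0.707) without skip1 alone replicate 1, the library with 1 read, and 1.71 (0.0262) without skip1 alone replicate 3. The pooled call was lost when wild type replicate 1 (adjusted p = 0.0538), wild type replicate 2 (0.0848), skip2 alone replicate 2 (0.118), skip2 induced replicate 1 (0.0727), skip2 induced replicate 2 (0.0636) or dN90 induced replicate 3 (0.0586) was left out.

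Tead1, the DNA-binding partner (chromosome 7, 112679318 to 112906807), rose in every induced group. Without induction it was at 11.3 and 5.82 normalized counts in wild type, 13.2, 9.20 and 7.46 in skip1 alone, and 4.62 and 8.24 in skip2 alone. With induction it was at 19.4, 23.1, 23.2, 30.7 and 14.9 in skip1, 37.7 and 20.8 in skip2, and 40.1, 25.5, 37.6 and 42.7 in dN90 samples. Every induced library lay above every library without induction. Tead1 was higher by 1.09 (SE 0.30, adjusted p = 0.0188) in skip1 induced against skip1 alone, 2.01 (SE 0.41, adjusted p = 0.00227) in skip2 and 2.01 (SE 0.36, adjusted p = 0.000312) in dN90 induced against wild type. The skip1 call was lost without skip1 alone replicate 2 (adjusted p = 0.0636), skip1 alone replicate 3 (0.105) or skip1 induced replicate 4 (0.0512), and the skip2 call without skip2 induced replicate 1 (0.0668).

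Ajuba, the LATS-binding LIM protein (chromosome 14, 54567472 to 54577558), showed the largest difference of the 8 tested genes over all induced groups. It was at 7.93 and 6.65 normalized counts in wild type, 6.58, 6.90 and 0 in skip1 alone, and 2.31 and 5.49 in skip2 alone, where no library held more than 8 reads. It was at 36.6, 27.8, 26.9, 37.9 and 38.3 in skip1 induced, 57.9 and 35.1 in skip2 induced, and 65.3, 52.0, 111.6 and 67.6 in dN90 induced samples. The induced libraries lay above all those without induction, and the dN90 libraries above those of skip1, while skip2 overlapped with both. Ajuba rose by 3.12 (SE 0.48, adjusted p = 0.000197) in skip1, 3.31 (SE 0.65, adjusted p = 0.00160) in skip2 and 3.13 (SE 0.56, adjusted p = 0.000352) in dN90 induced samples.

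Amotl2, the angiomotin family protein that binds YAP (chromosome 9, 102716672 to 102733418), rose in skip2 and dN90 induced samples and missed the threshold in skip1. Without induction it was at 11.3 and 15.8 normalized counts in wild type, 19.7, 8.05 and 9.59 in skip1 alone, and 4.62 and 13.7 in skip2 alone. With induction it was at 34.4, 17.6, 18.6, 34.3 and 24.5 in skip1, 68.5 and 40.5 in skip2, and 97.5, 53.1, 124.2 and 77.5 in dN90 samples. The lowest 2 skip1 induced libraries fell below the highest skip1 alone library, and the other induced libraries lay above it. The difference was 1.04 in skip1 (SE 0.35, adjusted p = 0.0522), 2.56 in skip2 (SE 0.48, adjusted p = 0.00121) and 2.56 in dN90 (SE 0.42, adjusted p = 0.000129). In skip1 it passed the test without skip1 alone replicate 1 (adjusted p = 0.0199) or skip1 induced replicate 2 (0.0324), and also with upper-quartile scaling (0.0317), array weights (0.0117) and voom on estimated reads (0.0230).

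Ptpn14, the YAP-binding tyrosine phosphatase (chromosome 1, 189728268 to 189876695), rose in all 3 induced groups, with the largest fitted difference in dN90. It was at 2.27 and 0 normalized counts in wild type, which are 2 reads and 0 reads, at 6.58, 5.75 and 5.33 in skip1 alone, and at 3.47 and 6.87 in skip2 alone. It was at 17.2, 10.2, 29.7, 15.3 and 13.8 in skip1 induced, 40.9 and 38.1 in skip2 induced, and 49.6, 45.9, 56.4 and 45.7 in dN90 induced samples. The induced libraries stood in an order without overlap, skip1 below skip2 below dN90. Ptpn14 was higher by 1.33 (SE 0.35, adjusted p = 0.0146) in skip1, 2.77 (SE 0.48, adjusted p = 0.000507) in skip2 and 4.80 (SE 0.42, adjusted p = 6.36e-08) in dN90, the last against a wild type level of almost no reads. The skip1 call was lost without skip1 alone replicate 3 (adjusted p = 0.0595).

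Ccn1, a secreted matricellular protein and classical YAP target (chromosome 3, 145646976 to 145649981), rose in all 3 induced groups. It was at 4.53 and 6.65 normalized counts in wild type, 4.93, 3.45 and 13.9 in skip1 alone, and 4.62 and 2.75 in skip2 alone. It was at 23.7, 18.5, 25.1, 34.3 and 24.5 in skip1 induced, 53.3 and 35.7 in skip2 induced, and 81.0, 27.5, 72.7 and 40.7 in dN90 induced samples. No induced library reached down to the highest one without induction, and dN90 libraries spread over the widest range. Group means were 3.40 times higher in skip1 induced than in skip1 alone samples, 12.1 times higher in the skip2 pair and 9.93 times higher in dN90 induced than in wild type samples. The differences were 1.81 (SE 0.37, adjusted p = 0.00253), 3.28 (SE 0.51, adjusted p = 0.000170) and 2.99 (SE 0.44, adjusted p = 4.31e-05).

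Ankrd1, an ankyrin repeat protein of the nucleus and the muscle sarcomere and a classical YAP target (chromosome 19, 36111961 to 36120099), had 0 reads in each of the 7 libraries without induction. It was at 3.23, 2.78, 4.64, 10.8 and 5.32 normalized counts in skip1 induced, 17.01 and 4.17 in skip2 induced, and 22.02, 2.04, 26.3 and 14.9 in dN90 induced samples. All 11 induced libraries held reads, with 2 in the lowest (dN90 replicate 2) and 37 in the highest (skip2 replicate 1). A count of 0 allows up to 3 reads per library, or 2.49 to 4.93 normalized counts, and 8 of the 11 induced libraries held more than 3 reads. The induced mean of 10.3 was 2.88 times the mean of that floor, 3.58. Group means were 5.36 in skip1, 10.6 in skip2 and 16.3 in dN90 induced samples. In a fit without a filter (14086 genes) Ankrd1 passed in skip1 (adjusted p = 0.00583), skip2 (0.0103) and dN90 (0.000451).

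Myof, the ferlin myoferlin, which works in membrane repair and fusion (chromosome 19, 37899036 to 38043577), rose in all 3 induced groups. It ranged from 1.37 to 6.94 normalized counts without induction, and from 10.8 to 31.6 in skip1, 36.2 to 42.2 in skip2 and 22.5 to 63.6 in dN90 induced samples. No induced library overlapped with those without induction. The differences were 2.23 (SE 0.42, adjusted p = 0.00137) in skip1, 3.21 (SE 0.58, adjusted p = 0.000792) in skip2 and 3.78 (SE 0.50, adjusted p = 1.29e-05) in dN90.

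Tgfb2, a TGF-beta ligand (chromosome 1, 186622792 to 186705989), was at low read numbers throughout, with 12 to 21 reads in dN90 induced libraries and 1 to 12 in the other induced ones. It was at 0 in 5 of the 7 libraries without induction and at 1 read in skip1 alone replicate 2 and skip2 alone replicate 2. It was at 6.47, 0.927, 11.2, 0.905 and 7.47 normalized counts in skip1 induced, 4.61 and 3.58 in skip2 induced, and 9.46, 21.5, 22.6 and 11.9 in dN90 induced samples. The skip1 group split, with 1 read in replicates 2 and 4. In the fit without a filter it was higher in dN90 (adjusted p = 0.000142) and skip1 (0.0337), and did not pass in skip2 (0.206).

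By count, 5 of the 8 tested genes were higher in skip1 induced than in skip1 alone samples, against 6.55% of all genes tested. In skip2 the count was 6 of 8, against 6.52%, and in dN90 induced against wild type 6 of 8, against 10.8%. Over all induced groups 7 of 8 were higher, against 17.2%. Their median difference was 1.22 in skip1, 2.67 in skip2 and 2.78 in dN90, beside medians of -0.02, -0.06 and 0.01 over all genes tested. In the fit without a filter, which tests all 10, the counts were 7 in skip1 (5.75% of all genes higher), 7 in skip2 (4.43%), 8 in dN90 (7.44%) and 9 over all induced groups (16.3%). Complete separation of the 11 induced from the 7 other libraries, upward, held for 5 of the 8 tested genes and for 3.11% of all genes. These 5 passed the filter only through the induced groups. The counts among the 8 therefore describe these genes and carry no weight of their own.

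**Figure D2:**
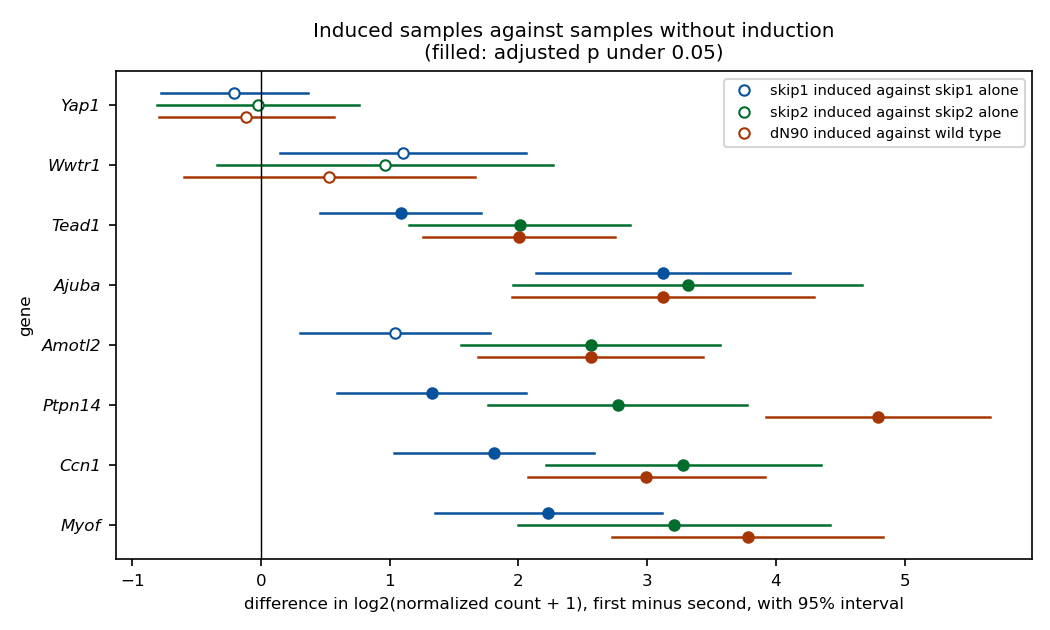
Differences in log2(normalized count + 1) with 95% intervals (horizontal axis) for the 8 tested genes in 3 comparisons of induced samples with samples without induction; filled points passed an adjusted p of 0.05. Yap1 lies at -0.21, -0.02 and -0.11, and Ptpn14 runs from 1.33 in skip1 to 4.80 in dN90.

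Markers of some other cell types moved with these differences. Of 9 biliary markers 8 were listed and 3 were tested (Spp1, Pkhd1 and Bicc1), and all 3 were higher in each induction comparison. Of all genes tested 6.55% were higher in skip1, 6.52% in skip2 and 10.8% in dN90. The summed biliary level was 14.6 to 45.6 normalized counts without induction, 236 to 542 in skip1, 571 to 652 in skip2 and 170 to 812 in dN90 induced samples. The low biliary genes did not pass the filter. Krt19 was at 1.05 and 1.43 in wild type and at 0 in all skip1 alone and skip2 alone libraries. Its median was 0 in skip1, 0.78 in skip2 and 1.01 in dN90 induced samples. It reached at most 3.43 in any induced library, and Krt7 at most 3.97. Sox9 was between 0 and 2.13 without induction and between 0.925 and 8.94 with it, and Epcam reached 10.9 in 1 dN90 induced library. In the fit without a filter 5 of the 8 listed biliary markers were higher over all induced groups, against 16.3% of all genes. The summed level of 10 stellate cell and fibroblast markers was 151 to 172 in wild type, 187 to 207 in skip1 alone, 237 to 242 in skip2 alone, 246 to 353 in skip1 induced, 403 to 454 in skip2 induced and 126 to 276 in dN90 induced samples, with 3 of 6 tested higher and 2 lower over all induced groups. Macrophage markers summed to 238 to 364 without induction and 319 to 671 with it, and 5 of 8 were higher. Of 6 tested endothelial markers 1 was higher and 1 was lower over all induced groups. Of the 6592 genes tested 17.2% were higher in this comparison, and 2508 were called in either direction. Hepatocyte markers were lower for 8 of 10. The part of these cells in the results was not tested, and in bulk samples fewer cells of a type and less RNA per cell cannot be told apart.

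The isoforms alone, without induction, gave no called change in these genes. Against wild type, 0 of the 8 passed with skip1 alone, where 0% of all genes passed limma, and 0 of 8 with skip2 alone, where 0.0152% did. At an unadjusted limma p under 0.05 there was 1 of the 8 in each, Ptpn14, at 1.93 (limma adjusted p = 0.904) and 1.71 (limma adjusted p = 0.669). Its wild type libraries held 2 reads and 0 reads and its other 5 held 3 to 5 reads, so this difference rests on very few reads. The difference for Yap1 was 0.20 (95% interval -0.52 to 0.91) with skip1 alone and 0.10 (-0.68 to 0.88) with skip2 alone.

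Between induced groups, skip1 samples held lower levels of the YAP-binding genes Amotl2 and Ptpn14 than dN90 samples. Amotl2 was lower by a log2 difference of -1.72 (SE 0.33, adjusted p = 0.00206) and Ptpn14 by -1.54 (SE 0.32, adjusted p = 0.00520), 2 of the 8, against 1.46% of all genes lower. These and Ajuba, 3 of the 8, were lower in skip1 without overlap, as were 3.87% of all genes. Ajuba differed by -1.08 (adjusted p = 0.197), Myof by -1.17 (0.102), Ccn1 by -1.01 (0.110) and Tead1 by -0.70 (0.184), and these 4 had an unadjusted p under 0.05. Wwtr1 (-0.12, 95% interval -0.99 to 0.76) and Yap1 (0.10, -0.42 to 0.63) did not pass. The median of the 8 was -1.05, beside -0.02 over all genes tested. Among low genes, the fit without a filter gave -1.74 for Tgfb2 (adjusted p = 0.0908) and -1.18 for Ankrd1 (0.360).

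The count between skip1 and dN90 induced samples was 4 with a pseudocount of 5 or with only the compared groups fitted, and 5 with voom on estimated reads. Myof passed without skip1 induced replicate 3 (adjusted p = 0.0480) and Ccn1 without dN90 induced replicate 2 (0.0328). Without dN90 induced replicate 3, the shallow library with the highest values, 2 were called. Endothelial markers summed to 265 to 326 normalized counts in skip1 and 161 to 281 in dN90 induced samples, and 3 of 6 tested were higher in skip1, while 0 of 6 stellate and fibroblast markers passed. Of all 6592 genes tested, 305 were called in either direction. Of macrophage and Kupffer cell markers 3 of 8 were higher in skip1, and of hepatocyte markers 2 of 10, Fabp1 (2.23) and Ttr (1.89). The part of these cells in the Amotl2 and Ptpn14 differences was not tested.

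Against skip2 induced samples, skip1 induced samples gave 0 called of 8, where 3.53% of all genes passed limma in either direction. The skip2 values rest on 2 libraries. At an unadjusted p under 0.05 were 3 of the 8, Ptpn14 at -1.23 (adjusted p = 0.0944), Amotl2 at -1.05 (0.164) and Myof at -1.16 (0.218). These 3 and Ccn1 (-0.80, adjusted p = 0.382) were lower in skip1 without overlap, as were 9.95% of all genes. Skip2 and dN90 induced samples gave 0 called of 8 and 0 at an unadjusted p under 0.05, beside 3.03% of all genes called, with intervals as wide as -1.82 to 0.53 for Ajuba and -1.54 to 0.21 for Amotl2. The rise from the isoform alone to the induced state was compared between skip1 and skip2 in 1 interaction term, and 0 of 8 passed, beside 0.167% of all genes. Amotl2 (-1.52, adjusted p = 0.390), Ccn1 (-1.47, 0.441) and Ptpn14 (-1.45, 0.419) had an unadjusted p under 0.05.

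**Figure D3:**
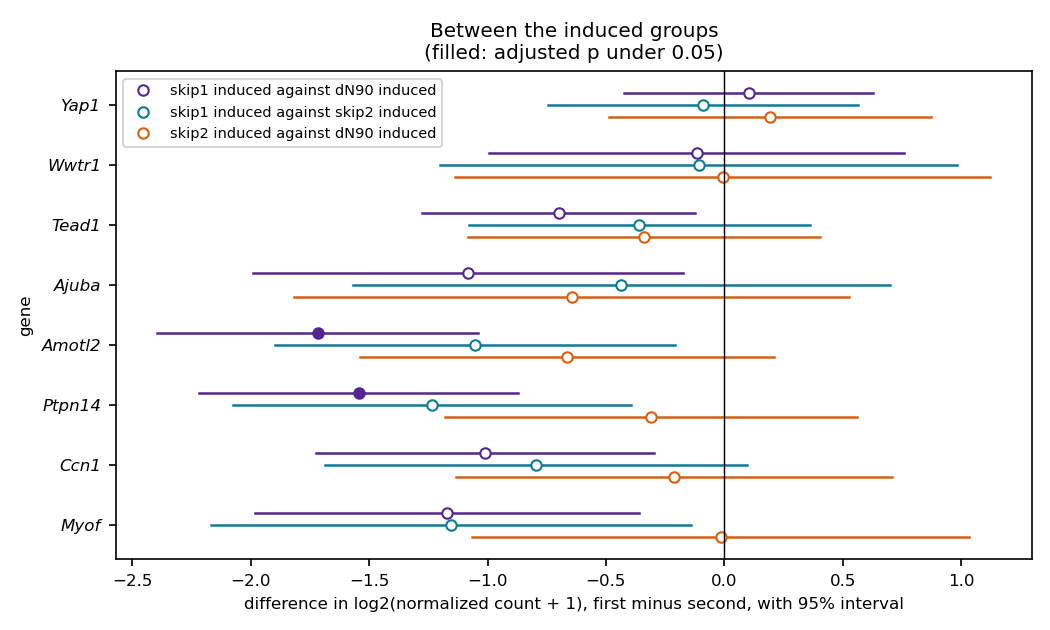
Differences in log2(normalized count + 1) between the induced groups, first minus second, with 95% intervals (horizontal axis), for the 8 tested genes. The filled points, which passed an adjusted p of 0.05, are Amotl2 at -1.72 and Ptpn14 at -1.54 in skip1 against dN90 induced samples.

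Other genes of the pathway were read from lists chosen with earlier results known. Of 18 Hippo kinases and activators 12 were tested, and over all induced groups 7 were higher and 0 lower, against 17.2% of all genes higher, with a median of 0.77. They included Map4k4, a kinase that can phosphorylate LATS (1.95), the scaffold genes Wwc1 (1.02) and Wwc2 (0.94), and Lats2 (0.91), itself a known YAP target, while Lats1 differed by -0.26 (adjusted p = 0.217). Only Map4k4 passed in skip1 (1.23), 5 passed in skip2 and 7 in dN90, against 6.55%, 6.52% and 10.8% of all genes higher. Of 11 other TEAD factors and cofactors 4 were tested and 1 was higher, a share near the 17.2% of all genes, namely Amot, the founding angiomotin (2.26), with Vgll4, a TEAD-binding repressor, also higher in dN90 (1.18). Of 15 other genes of a published YAP and TAZ signature 5 were tested and 2 were higher, Crim1 (1.34) and Axl, a receptor tyrosine kinase (0.98). The fit without a filter, over all induced groups, gave 5 of 9 other TEAD factors and cofactors higher, against 16.3% of all genes. In that fit 4 of 13 signature genes and 8 of 18 Hippo kinases and activators were higher.

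Of 7 genes reported to rise with active YAP in mouse liver 2 were tested and both were higher, the Notch ligand Jag1 (2.13) and the receptor Notch2 (0.91). Notch2 was lower in skip1 than in skip2 induced samples (-0.92, adjusted p = 0.0401). Both tested AP-1 genes of 8 were higher, Jun (2.72) and Fosl2 (1.34), whose products bind near TEAD at many enhancers. Fosl2 was lower in skip1 than in dN90 induced samples (-1.38, adjusted p = 0.0379). In the TGF-beta list of 10, 6 were tested and 2 were higher, Smad3 (0.83) and the receptor gene Tgfbr1 (0.53). Median differences were 0.23 for the other TEAD factors and cofactors, 0.79 for the signature, 1.52 for the liver YAP genes, 2.03 for AP-1 and 0.36 for TGF-beta, beside -0.01 over all genes tested. The shares called in these short lists are read against the same 17.2% of all genes. No gene of these pathway lists that passed the filter was called lower in that comparison. In the fit without a filter 6 of the 7 liver YAP genes were higher and 1 was lower, against 16.3% of all genes higher. The same fit gave 4 of 8 AP-1 genes and 3 of 10 TGF-beta genes higher.

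**Figure D4:**
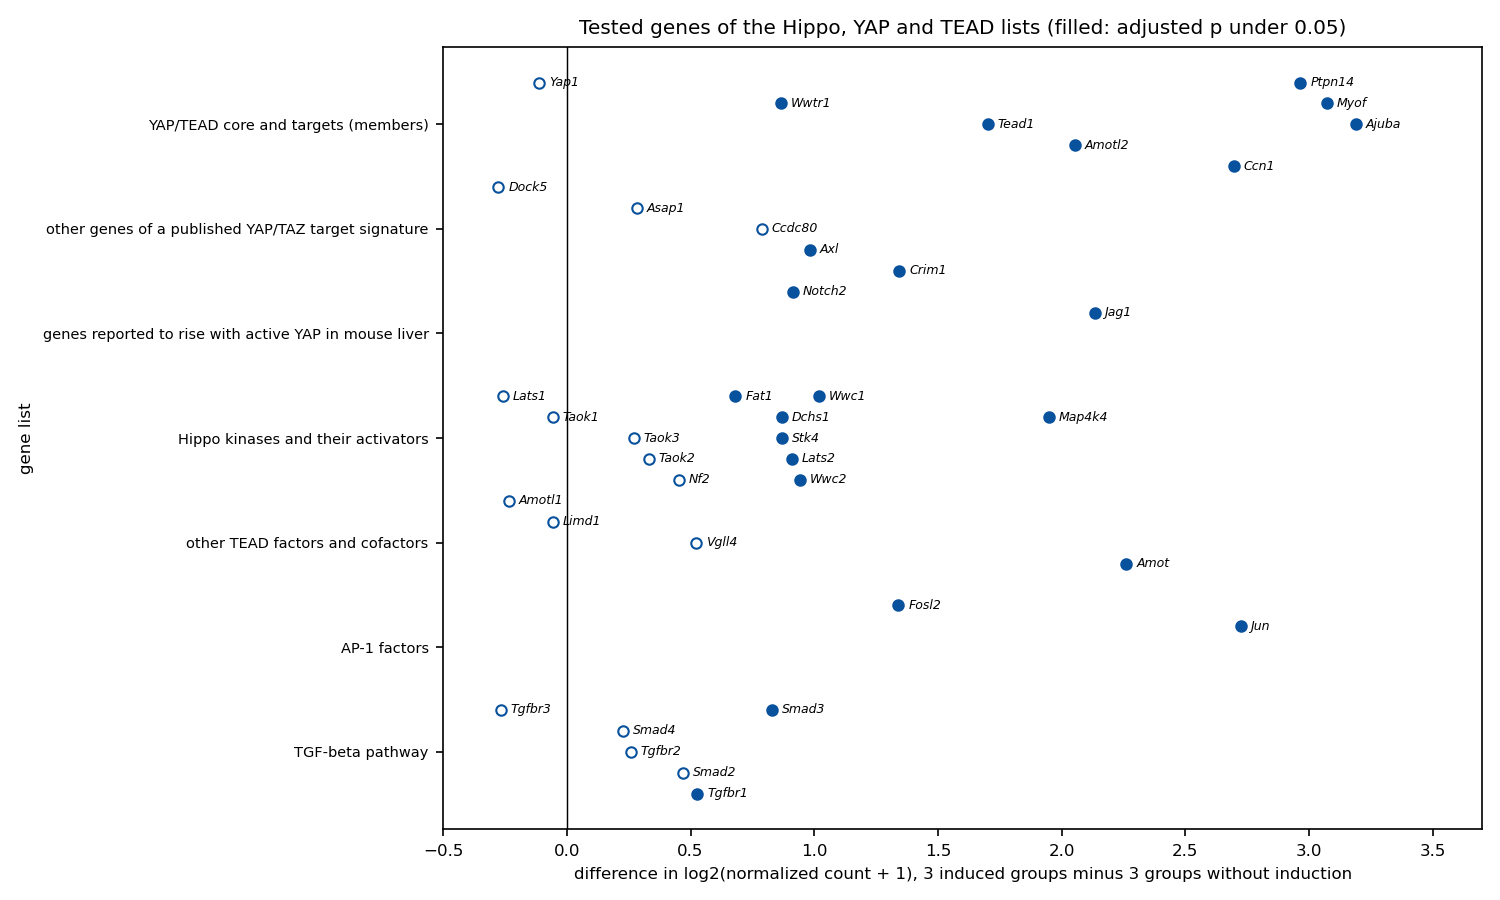
Differences in log2(normalized count + 1) between the 3 induced groups and the 3 groups without induction (horizontal axis) for each tested gene, by list; filled points passed an adjusted p of 0.05. Of the Hippo kinases and activators 7 of 12 are filled, all above 0, with Map4k4 at 1.95.

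By Pearson correlation over the 18 libraries, the genes most like Ajuba were Ppl (0.97) and Sh3gl1 (0.97), those most like Ccn1 were Krt8 (0.94) and Fgfbp1 (0.94), and those most like Amotl2 were Myo1c (0.95) and Esyt1 (0.94). Myof was most like App (0.96) and Fgfbp1 (0.96), Ptpn14 most like Il10rb (0.94) and Ahnak (0.94), and Tead1 most like Dgkd (0.94) and Abcb1a (0.94). Yap1 had lower values, with Pgrmc2 (0.79) and Xpnpep3 (0.78) on top, as did Wwtr1 with Fzd7 (0.87) and Vwa5a (0.84). The libraries share group differences and depth, so these are descriptions.

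In the tumour subtypes, 7 of the 10 genes were among the z-scored ones, without Yap1, Wwtr1 and Ccn1, and 5 of the 7 were lower in subtype A than in subtype B. A z-score is in SDs of a gene over the libraries that the authors scaled together, which were not exactly those deposited, and gives no fold. The subtypes were told apart in part by their transcriptomes, and the genes were selected by the authors, so the difference between them may not be independent of the grouping. Ptpn14 was at -0.098, -0.047, 0.165 and -0.155 in subtype A and ranged from 0.304 to 1.17 (median 0.715) in subtype B. Myof was at -0.529, 0.164, 0.140 and -0.150 in A and from 0.197 to 1.22 (median 0.591) in B. Tgfb2 was at -0.637, 0.180, -0.556 and -0.591 in A and from 0.201 to 1.54 (median 0.524) in B. All A libraries lay below all B libraries for these 3, with Tgfb2 in A replicate 2 close to the lowest B library. Such separation held for 3 of 7, against 4.1% of the 1659 genes.

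The differences of A minus B were -1.01 for Tgfb2 (SE 0.21, limma adjusted p = 0.00192), -0.74 for Myof (SE 0.16, adjusted p = 0.00211) and -0.71 for Ptpn14 (SE 0.13, adjusted p = 0.000963). Ankrd1 differed by -0.80 (SE 0.27, adjusted p = 0.0189) and Tead1 by -0.51 (SE 0.15, adjusted p = 0.00865), both with overlap. Ajuba (-0.31, adjusted p = 0.100) and Amotl2 (-0.64, adjusted p = 0.0732) did not pass. Of all z-scored genes 20.9% were lower in A, and the median was 0.19 over all and -0.71 over the 7. The Ankrd1 call was lost without subtype A replicate 3 (adjusted p = 0.0723) or replicate 4 (0.0615), while without subtype B replicate 3, the lowest B library for Amotl2 at -0.722, Ajuba (0.0360) and Amotl2 (0.0116) passed.

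Both subtypes stood above the sgActin and YAPS127A control for all 7 genes without overlap, as did 43.6% of the 1659 genes for each subtype. Control means ran from -1.98 for Ajuba to -1.62 for Ankrd1 (n = 3 each). Differences ran from 1.30 (Tgfb2) to 2.14 (Ajuba) in subtype A and from 2.11 (Ankrd1) to 2.61 (Ptpn14) in subtype B. All 7 were called in each, against 41.7% of the 1659 genes higher in A and 44.1% in B. Called in either direction were 1614 genes in A and 1653 in B. The control carries activated YAP by its label, and the 3 libraries sat close together, with an SD of 0.0033 for Ankrd1 and of 0.084 at most, for Tead1. The data cannot show from z-scores whether its genes were near 0 reads. In each subtype against this control, 5 of 5 biliary markers were higher, while 8 of 8 hepatocyte and 3 of 3 endothelial markers were lower. Of 4 stellate and fibroblast markers 3 were higher, and Dcn was lower (-1.95 in A, -2.49 in B). Of 2 macrophage markers Lyz2 was higher and Clec4f was lower in each. The part of those cells in this difference was not tested.

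**Figure D5:**
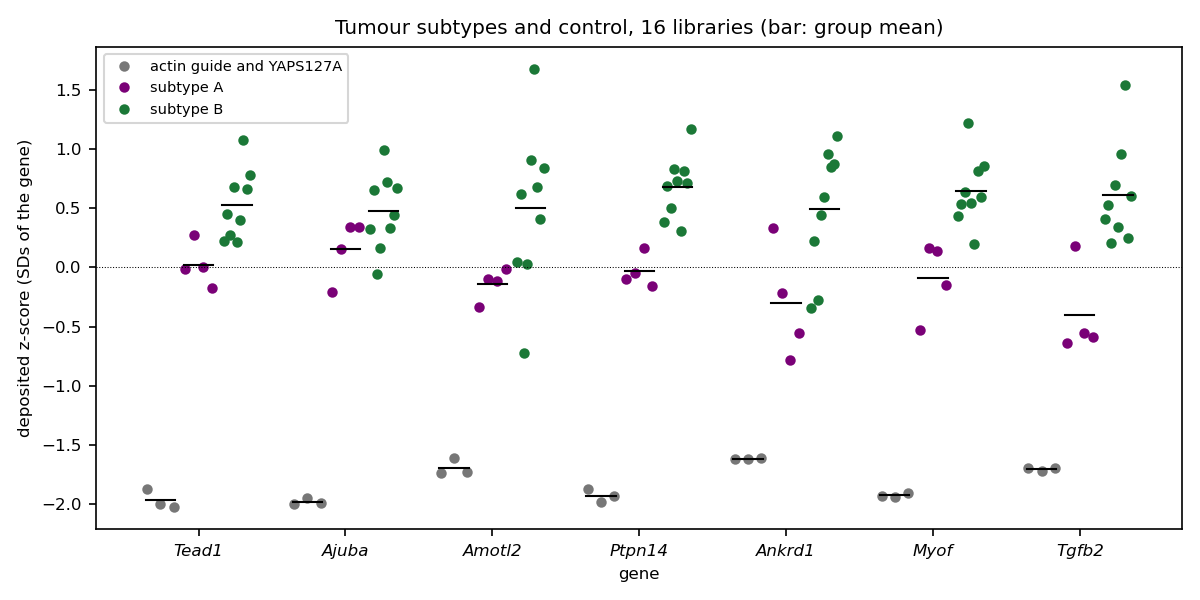
Deposited z-scores (vertical axis, in SDs of the gene) of the 7 genes in the 16 libraries of the subtype block; points are libraries and bars group means. The 3 control libraries lie near -1.6 to -2.0 for every gene, and subtype A lies below subtype B without overlap for Ptpn14, Myof and Tgfb2.

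Of the Hippo, TEAD, signature, liver YAP and AP-1 lists, no z-scored gene was called higher in A than in B. Lower in A were 2 of 4 other TEAD factors and cofactors, Tead4 (-0.42) and Vgll3 (-0.91), the signature gene Arhgef17 (-0.66), 2 of 5 liver YAP genes, Jag1 (-0.57) and Sox4 (-0.49), and Jun among 3 AP-1 genes (-0.65). The Hippo kinase list held Fat1 (-0.11) and Map4k4 (-0.19), and neither passed. Of all 1659 genes 20.9% were lower in A, and 1014 were called in either direction. Of 5 biliary markers 2 were lower in A, while 4 of 8 hepatocyte markers and 3 of 3 endothelial markers were higher in A. Of 4 stellate and fibroblast markers Dcn was higher in A (0.54), and of 2 macrophage markers Clec4f was (0.59). The others of these 2 lists had negative differences that did not pass. The part of those cells in the subtype difference was not tested.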

How the data were processed

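Mouse liver RNA-seq was analysed from 2 deposited tables. The authors deposited normalized counts, a non-negative signal of 14086 genes for 18 libraries. The submitters' processing notes name mm10 as the build and STAR, RSEM, DESeq2 and FastQC as tools, and versions are not given in the sources used here. Of values above 0, about 60% were whole multiples (tolerance 0.001) of 1 step per library, which gave the estimated reads; 141 of 166 values above 0 of the 10 genes were whole reads within 0.05. The authors also deposited a second table of scores: before deposit they centred and scaled each of 1659 selected genes to a z-score. The 16 subtype and control libraries form 1 block, but their values do not centre exactly on 0. For Ankrd1 the group means were -0.304 (subtype A, n = 4), 0.492 (subtype B, n = 9) and -1.62 (control, n = 3). The scaling was therefore not over exactly these 16 libraries, and which others entered it is not known. The 18 other libraries were scaled apart, and their z-scores were not used. The depth of z-scored libraries is unknown.

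Values were tested as log2(value + 1) with limma 3.58.1 in R 4.3.3 (mean of at least 10 over 18 libraries, 6592 genes, 1 coefficient per group, trended prior, two-sided, Benjamini-Hochberg, called at an adjusted p under 0.05). Z-scores were tested with limma without a trend. The test was checked on simulated data. The 10 genes and all lists were chosen with earlier results of these data known; up to 4 called members of a list were named. Positions are from GENCODE (mm10), and promoters, searched in Python 3.11.15, from RefSeq. Replicate numbers follow accession order. Alternatives were other pseudocounts, filters, scalings, weights, fits and left-out libraries.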

Additional observations from a re-analysis of the deposited data

Results flagged for a closer look

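Among 34 pairs of a gene and a group of 4 to 10 libraries, 2 held a library far from the others of its group, and chance flags about 1 in 20. Yap1 was at 51.7 normalized counts in dN90 induced replicate 3, while the next value was 29.2. This is the shallowest library, and it was also the highest of the 18 for 7 of the 10 genes. Tgfb2 had a z-score of 0.180 in subtype A replicate 2, while the next value was -0.556, and without that library the difference between the subtypes was -1.21 (limma adjusted p = 0.00131).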

How the results depend on the processing

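Counts of called genes that moved by over 1.5 times were those between induced groups, while the count in skip1 induced against skip1 alone ran from 4 to 6 and over all induced groups from 6 to 7. For skip1 against dN90 induced samples, 2 called became 4 with a pseudocount of 5, 5 with voom on estimated reads and 4 with only the compared groups fitted. For skip1 against skip2 induced samples, 0 became 1 with a pseudocount of 5, 1 with array weights and 2 with voom. Yap1, never called, changed sign in skip2 induced against skip2 alone with upper-quartile scaling (0.15), quantile normalization (0.082), a depth covariate (0.014) and voom (0.56), in all induced against the others with upper-quartile scaling (0.021) and voom (0.39), in skip1 and dN90 with voom (0.30 and 0.32), and between skip1 and dN90 induced samples without skip1 induced replicates 1 and 2 together (-0.092). Voom moved the median of all genes up by 0.46 to 0.58 in the induction comparisons and upper-quartile scaling by 0.10 to 0.17, so Yap1 under voom lay below the median of all genes except in skip2 (0.56 against 0.53). Wwtr1 in skip2 turned to -0.15 with the depth covariate. With single libraries left out, Yap1 ran from -0.43 to 0.20 in dN90 against wild type, from -0.18 to 0.14 in skip2 and from -0.038 to 0.33 between skip1 and dN90 induced samples, and Wwtr1 between those 2 from -0.36 to 0.087. The depth covariate gave a call of Wwtr1 in skip1 (1.28, adjusted p = 0.0420). Quantile normalization ended the calls of Tead1 in skip1 (adjusted p = 0.0501) and Wwtr1 over all induced groups (0.0581). The causes were not tested. A mean of at least 50 left none of the 10 genes to test. No paired analysis was possible because replicate numbers only follow accession order. Low read numbers limit Ankrd1 and Tgfb2 most.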
